A study of Mus musculus with 18 samples.

Results

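The genes that make fatty acids and handle lipid droplets were followed through cultured tendon fibroblasts (TFs). They were the rows of the gene count table with the symbols Fasn, Acaca, Acly, Scd1, Scd2, Elovl6, Plin2, Hilpda, G0s2 and Pnpla2, which are 10 of the 55491 rows, and each symbol matched 1 row. All 10 passed the filter on low counts. Poly(A) RNA was sequenced in 18 libraries, 3 replicates in each of 6 groups, from TFs of mouse tails cultured for 4 days. All groups grew on plastic in DMEM/F12 with serum, in either 20% O2 (normoxia) or 1% O2 (hypoxia). Ctrl TFs came from adult Cre-negative male and female mice that the labels call wild-type. cKO TFs came from mice labelled Hif1a knockout, in which Cre made from the tendon gene Scx deletes a floxed Hif1a allele, so that loss of the allele depends on past Scx activity in each cell. The last 2 groups were Ctrl TFs given Cre gesicles, which are vesicles that carry Cre recombinase into cells in culture. No label states how many cells lost the allele in any group, or which animal each library came from, so p-values measure the spread between these libraries.

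Cells make fatty acids from citrate. ATP citrate lyase (Acly) releases acetyl-CoA, acetyl-CoA carboxylase (Acaca) turns it into malonyl-CoA, and fatty acid synthase (Fasn) builds palmitate. Elovl6 lengthens the chain, and the stearoyl-CoA desaturases Scd1 and Scd2 put in a double bond. Much of this set is switched on by the SREBP transcription factors. Spare fatty acids are stored as triglyceride in lipid droplets, which perilipin 2 (Plin2) coats. Pnpla2 (ATGL) starts the breakdown of that triglyceride, and G0s2 and Hilpda are small proteins that inhibit it. HIF transcription factors, of which HIF-1α is one, are known to switch on Hilpda in many cell types in low oxygen, through sites whose core letters are ACGTG or GCGTG.

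The 10 genes are protein-coding on GRCm38. Fasn lies at chr11:120805846-120824547, Acaca at chr11:84129672-84401651, Acly at chr11:100476353-100528000, Scd1 at chr19:44394455-44407879 and Scd2 at chr19:44293674-44306864. Elovl6 lies at chr3:129532355-129638495, Plin2 at chr4:86648386-86670060, Hilpda at chr6:29272488-29275446, G0s2 at chr1:193272161-193273217 and Pnpla2 at chr7:141455198-141460743. Scd1 and Scd2 are close paralogs, and RSEM divides reads that fit both by estimate, so their separate values are uncertain. The only exon overlaps were 34 bases of Elovl6 with the antisense gene Gm35986, which had 10 counts over the 18 libraries, and 61 bases of Scd2 with a microRNA gene that had 0.

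The core letters were searched on both strands in the 250 bases before the RefSeq start sites (GRCm38.p6), where 8 of the 10 members had 9 windows. Scd1 and Scd2 had no entry. ACGTG or GCGTG occurred in windows of 5 members (Fasn, Acly, Plin2, Hilpda and G0s2) and in 38.6% of all 32851 windows (ACGTG in 16.6%, GCGTG in 28.2%). Hilpda had none before its first start and 3 matches before its second. All 3 fell in the 138 bases of that window that lie inside the annotated gene. Acaca, Elovl6 and Pnpla2 had none, and 0 member windows held CACGTG (6.02% of all windows) or the SREBP site letters TCACNCCAC (1.05%). The only Acaca window lay wholly inside the annotated gene, so the bases before the gene position given above were not searched. The windows of G0s2, Fasn and Plin2 are shown because their RNA rose, fell and did not pass the test in low oxygen, each without bases inside the annotated gene, 5′ to 3′ on the gene's strand, with the core letters in capitals (CACGC is GCGTG on the opposite strand).
G0s2, chr1:193273218-193273438, minus strand: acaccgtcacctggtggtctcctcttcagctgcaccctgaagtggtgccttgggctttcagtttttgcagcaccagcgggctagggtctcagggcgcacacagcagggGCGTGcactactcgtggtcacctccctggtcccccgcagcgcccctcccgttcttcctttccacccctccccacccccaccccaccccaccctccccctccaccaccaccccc
Fasn, chr11:120824548-120824797, minus strand: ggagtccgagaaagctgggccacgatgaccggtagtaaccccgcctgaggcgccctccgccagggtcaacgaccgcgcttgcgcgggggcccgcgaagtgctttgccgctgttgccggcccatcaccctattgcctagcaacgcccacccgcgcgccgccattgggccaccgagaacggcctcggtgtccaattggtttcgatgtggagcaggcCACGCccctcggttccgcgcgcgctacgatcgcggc
Plin2, chr4:86670061-86670309, minus strand: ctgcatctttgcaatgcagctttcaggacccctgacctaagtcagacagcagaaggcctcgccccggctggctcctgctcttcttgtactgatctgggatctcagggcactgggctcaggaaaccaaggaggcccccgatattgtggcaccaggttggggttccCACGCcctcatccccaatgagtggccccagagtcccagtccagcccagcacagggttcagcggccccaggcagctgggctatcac
The capitals begin 142 bases before the start in G0s2, 36 in Fasn and 86 in Plin2. The same letters thus stood before a gene that rose, a gene that fell and a gene that was not called, and no binding was measured.

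Library totals ran from 6857558 to 51806453 estimated counts, and all but 1 library (cKO in 1% O2, replicate 1) were at 26967440 or above. Levels are given as CPM, counts scaled to the library's total and its TMM factor. The tendon and fibroblast markers were all detected in every group (13 of 13 tested, with summed levels of 7262 to 18769 CPM). Of these, 2 were called higher in the libraries labelled cKO than in Ctrl in 20% O2 and 1 in 1% O2, with 0 lower. Over all genes, 0.145% were called higher in 20% O2 and 0.0252% in 1% O2. The adipocyte markers Adipoq, Cidec, Retn, Cidea and Cfd, by contrast, had at most 3 counts in every library. Hif1a itself was at 335 to 371 CPM in Ctrl TFs and 294 to 431 CPM in the libraries labelled cKO in 20% O2, at 365 to 488 against 398 to 503 in 1% O2, and at 341 to 397 and 370 to 393 with gesicles. Its range in cKO TFs and in those with gesicles thus overlapped that of Ctrl TFs at each O2 level. Counts over the whole gene do not show whether the floxed part was gone, so loss of the allele could not be checked with them. Counts of the Cre transgene were present in 5 of the 6 cKO libraries (15 counts in all) and at 0 in the other 12. Of 10 genes of the hypoxia response taken as a check, 7 were called higher in 1% O2 in each of the 3 arms.

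Libraries also differed in how strongly they represented long genes. For each library, the correlation over 16153 genes between a gene's deviation from its mean and the log2 of its exon length was taken as a length trend. It ran from 0.223 to 0.241 in Ctrl 20%, from -0.119 to 0.228 in Ctrl 1%, from -0.337 to -0.0871 in cKO 1%, from 0.00187 to 0.331 with gesicles in 20% and from -0.271 to 0.177 with gesicles in 1%. In cKO 20%, replicate 2 stood apart at -0.425, against 0.133 and 0.0764 in the other 2 libraries. The trend was thus lower in 1% than in 20% O2 on the whole, with overlap. The synthesis genes are long (exon lengths from 4892 bases in Scd1 to 17074 in Acaca), and G0s2 (871 bases) and Hilpda (1103 bases) are short. Values with offsets for GC content and length, added after the data were seen, are therefore given beside the results.

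Levels per length (TPM, counts divided by exon length and scaled to the same sum in every library) spread widely among the members. Over the 18 libraries, the median was 456 TPM for Scd2, 289 for both Acly and Plin2, 101 for Scd1, 47.2 for Hilpda, 32.4 for Pnpla2, 25.9 for G0s2, 22.6 for Fasn, 15.2 for Elovl6 and 1.87 for Acaca. Scd2 was thus above Scd1 by this measure, within the limit on their separate values, and Acaca was the scarcest member, at 46 to 1069 counts per library.

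**Figure D1:**
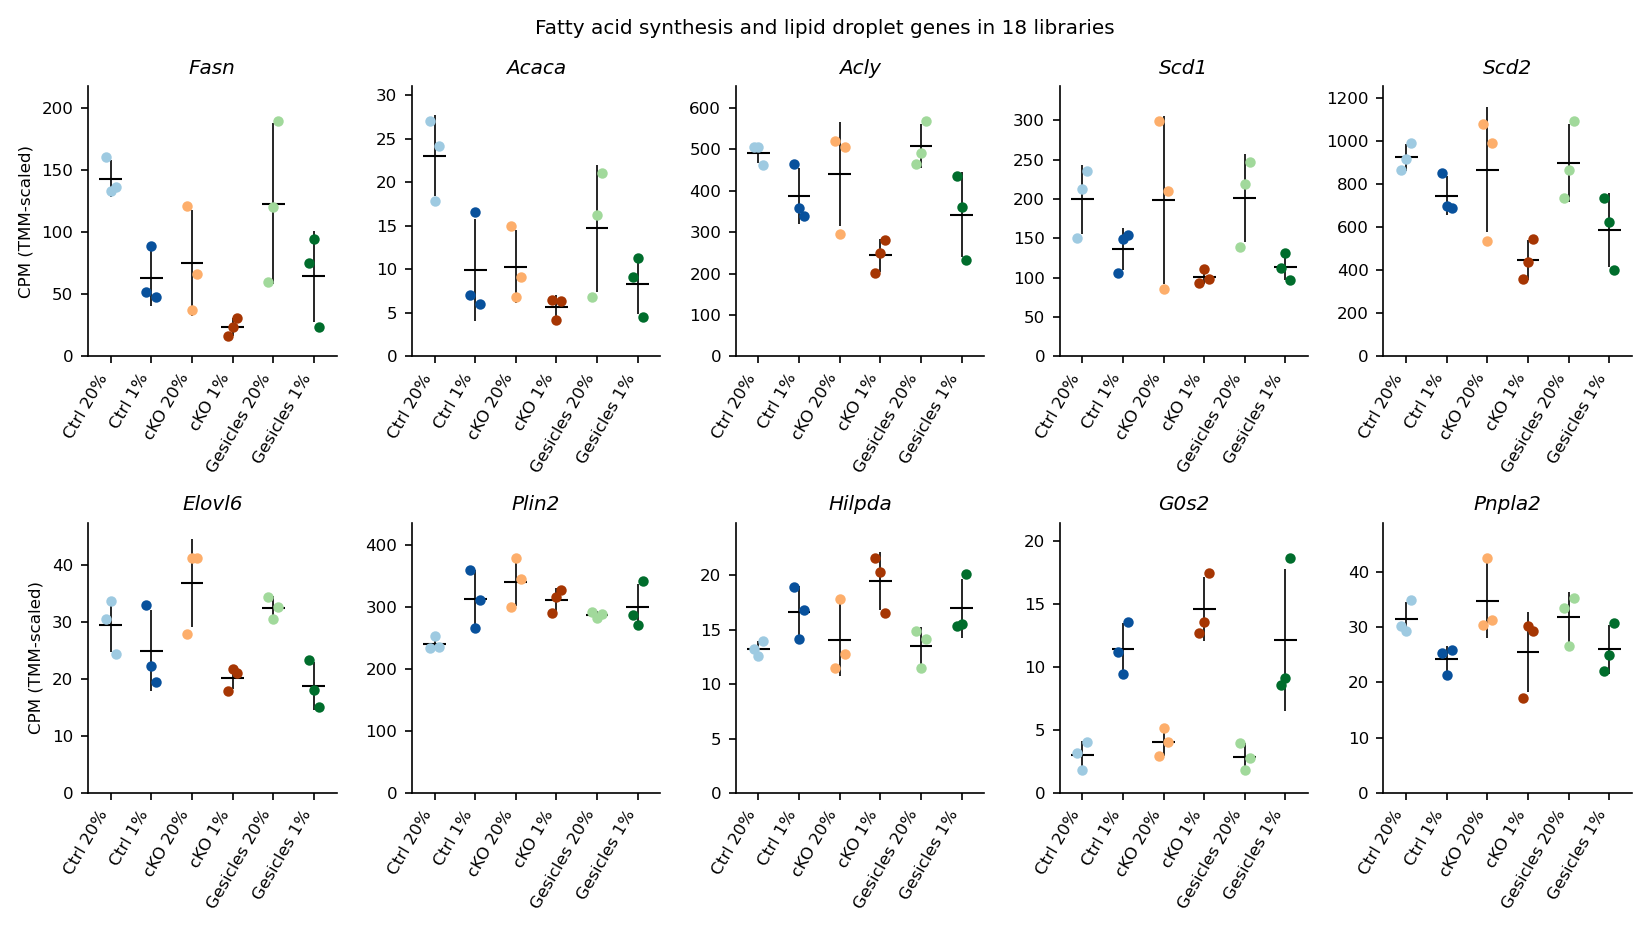
Level of each member in CPM (vertical axes, linear, starting at 0) in the 6 groups of 3 libraries (points), with the mean (horizontal bar) and SD (vertical line). G0s2 at 1% O2 lies above every 20% library, the Fasn to Elovl6 panels are mostly lower at 1%, and Plin2, Hilpda and Pnpla2 shift little.

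The first question was how these genes respond to 1% O2. Averaged over the 3 arms (Ctrl, cKO, Ctrl with gesicles), the 6 genes that make, lengthen and desaturate fatty acids all fell, G0s2 rose, and Plin2, Hilpda and Pnpla2 were not called. A gene was called at a Benjamini-Hochberg adjusted p under 0.05 over all genes tested and a fold change of at least 1.5, in edgeR's quasi-likelihood test. Of the 10 members, 6 were called lower against a background of 5.13% of all 16174 genes, and 1 higher against 5.36%. The median log2 fold change was -0.60 over the members and -0.02 over all genes tested. Fewer cells of a type and less RNA per cell cannot be told apart in these bulk libraries. The arms are not fully independent, since Ctrl libraries with and without gesicles that share a number deviated from their groups together. With 1 block per genotype and number, which treats these as 1 culture, the same 7 members were called, and with the Ctrl and cKO arms alone 5 were (Fasn, Acaca, Acly, Scd2 and G0s2). With the offsets 4 were called (Fasn, Acaca, Scd1 and G0s2).

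Fasn fell most. In Ctrl TFs its level was 160, 133 and 136 CPM in 20% O2 and 52.2, 88.6 and 47.5 CPM in 1% O2. In cKO TFs it was 121, 37.6 and 66.4 CPM in 20% and 16.3, 23.7 and 30.8 CPM in 1%. The 1% libraries lay below all 20% libraries of their own arm in both. With gesicles it was 59.5, 120 and 189 CPM in 20% and 74.8, 94.3 and 24 CPM in 1%, and the groups overlapped. The averaged log2 fold change was -1.26 ± 0.286 (SE; adjusted p = 0.00519), a 2.39-fold lower level, and -1.02 with the offsets (adjusted p = 0.00117). The level of Fasn followed the length trend closely over the 18 libraries (r = 0.92, a description, since libraries of an arm share oxygen and culture), and its part in the difference beyond the offsets was not tested.

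Acaca, the enzyme that commits acetyl-CoA to fatty acids, ran beside Fasn (r = 0.912 over 18 libraries, across which oxygen and the length trend also vary). It was 27, 17.9 and 24.2 CPM in Ctrl 20% and 7.09, 16.6 and 6.04 CPM in Ctrl 1%. It was 15, 6.87 and 9.09 CPM in cKO 20% and 6.54, 4.17 and 6.38 CPM in cKO 1%, again without overlap in either arm. With gesicles it ranged from 6.81 to 21.1 CPM in 20% and from 4.51 to 11.3 CPM in 1%. The averaged log2 fold change was -0.97 ± 0.264 (adjusted p = 0.0143), and -0.70 with the offsets (adjusted p = 0.00983).

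Acly, which supplies the acetyl-CoA, was one of the more abundant members. It fell from 492 ± 24.4 CPM (mean ± SD, n = 3) to 388 ± 68.5 in the means of Ctrl TFs, from 440 ± 126 to 244 ± 40.4 in cKO and from 508 ± 53.7 to 343 ± 103 with gesicles. The 1% and 20% libraries did not overlap in cKO or with gesicles, and did in Ctrl, where 466 CPM in 1% exceeded 463 in 20%. Averaged, the log2 fold change was -0.59 ± 0.131 (adjusted p = 0.00474), which is just past the 1.5-fold minimum. It was short of that minimum with the replicate block (-0.58, adjusted p = 0.00686) and with the offsets (-0.49, adjusted p = 0.00301).

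Both desaturases moved in the same direction. Scd1 was 151, 213 and 236 CPM in Ctrl 20% and 106, 149 and 154 in Ctrl 1%, 299, 86.1 and 211 in cKO 20% and 93.5, 111 and 99 in cKO 1%, and 139 to 247 against 97.4 to 131 with gesicles. The cKO 20% library at 86.1 CPM was replicate 2, the one with the lowest length trend. Scd2 was 863 to 990 CPM in Ctrl 20% and 689 to 850 in Ctrl 1%, with no overlap, and 535 to 1078 against 359 to 546 in cKO and 733 to 1091 against 399 to 736 with gesicles. The averaged log2 fold changes were -0.78 ± 0.189 for Scd1 (adjusted p = 0.00727) and -0.62 ± 0.146 for Scd2 (adjusted p = 0.00614). With the offsets, Scd1 stayed at -0.70, whereas Scd2 (-0.52, adjusted p = 0.00379) was short of the fold minimum.

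Elovl6, the elongase that turns palmitate into stearate, differed from the genes above in that its level showed little relation to the length trend (r = 0.207). It was 30.4, 33.7 and 24.3 CPM in Ctrl 20% against 32.9, 22.3 and 19.5 in Ctrl 1%, which overlapped. It was 27.8, 41.2 and 41.1 CPM in cKO 20% against 17.9, 21.7 and 21 in cKO 1%. With gesicles it was 34.4, 30.4 and 32.6 CPM in 20% against 23.3, 18.1 and 15 in 1%. Those 2 arms did not overlap. Averaged, it fell by 0.63 ± 0.122 on the log2 scale (adjusted p = 0.00186), and by 0.52 with the offsets (adjusted p = 0.00995), short of the fold minimum.

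G0s2, the inhibitor of Pnpla2, was the member called in every arm. It was 3.14, 1.86 and 4.04 CPM in Ctrl 20% and 11.2, 9.47 and 13.6 CPM in Ctrl 1%. It was 2.97, 5.14 and 4.03 CPM in cKO 20% and 12.7, 13.6 and 17.5 CPM in cKO 1%. With gesicles it was 4.01, 1.83 and 2.78 CPM in 20% and 8.62, 9.18 and 18.7 CPM in 1%. All 9 libraries in 1% O2 thus lay above all 9 in 20%. The log2 fold change was 1.93 ± 0.295 in Ctrl (adjusted p = 0.00613), 1.85 ± 0.293 in cKO (adjusted p = 0.00795) and 2.08 ± 0.359 with gesicles (adjusted p = 0.00525), with an average of 1.95 ± 0.207 (3.86-fold, adjusted p = 9.79e-06). It was 1.84 with the offsets (adjusted p = 6.82e-06). In the Ctrl arm 1.47% of the 15850 genes tested were called higher, in cKO 1.4% and with gesicles 1.64%.

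Pnpla2, the lipase that G0s2 inhibits, was 29.2 to 34.9 CPM in Ctrl 20% and 21.4 to 25.9 in Ctrl 1%, 30.3 to 42.5 against 17.2 to 30.2 in cKO, and 26.6 to 35.3 against 22.1 to 30.7 with gesicles. The first 2 arms did not overlap. The averaged log2 fold change was -0.37 ± 0.116 (adjusted p = 0.0303), which passed the p threshold but not the fold minimum. With the offsets it was -0.40 (adjusted p = 0.00486), also under that minimum. Each library in 1% O2 was below that of the same arm and number in 20% (9 of 9). Acly was also below in 9 of 9, and Hilpda and G0s2 were above in 9 of 9. The share of all genes with such a count is not given here. Of the 3 arms, only Ctrl had numbers that paired its libraries.

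Hilpda, known for its response to low oxygen, was 13.2, 12.6 and 14 CPM in Ctrl 20% and 18.9, 14.1 and 16.8 CPM in Ctrl 1%. It was 11.5 to 17.8 CPM in cKO 20% and 16.5 to 21.6 in cKO 1%, and 11.5 to 14.9 against 15.3 to 20.1 with gesicles. The groups overlapped only in cKO, through replicate 2 of cKO 20% (17.8 CPM). The averaged log2 fold change was 0.37 ± 0.104 (1.3-fold, adjusted p = 0.0166), under the fold minimum. With the offsets it was 0.28 (adjusted p = 0.00855). In the same libraries 8 of the 10 hypoxia check genes were called higher on average and 2 were not called. Their median log2 fold change was 1.70. Pdk1, one of these check genes, rose by 2.25 ± 0.109 (adjusted p = 2.18e-09).

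Plin2, the droplet coat, was 235, 253 and 236 CPM in Ctrl 20% and 361, 266 and 311 CPM in Ctrl 1%, without overlap. In cKO it was 300, 380 and 345 CPM in 20% and 290, 317 and 328 CPM in 1%. With gesicles it was 293, 283 and 289 CPM in 20% and 288, 271 and 343 CPM in 1%. The Ctrl 20% group lay below the other 5, whose neighbours in the order of means overlapped. The log2 fold change was 0.38 ± 0.133 in Ctrl (adjusted p = 0.186) and -0.13 ± 0.133 in cKO (adjusted p = 0.635). With gesicles it was 0.06 ± 0.122 (adjusted p = 0.85). On average it was 0.10 ± 0.0704 (adjusted p = 0.318), and also 0.10 with the offsets (adjusted p = 0.238).

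**Figure D2:**
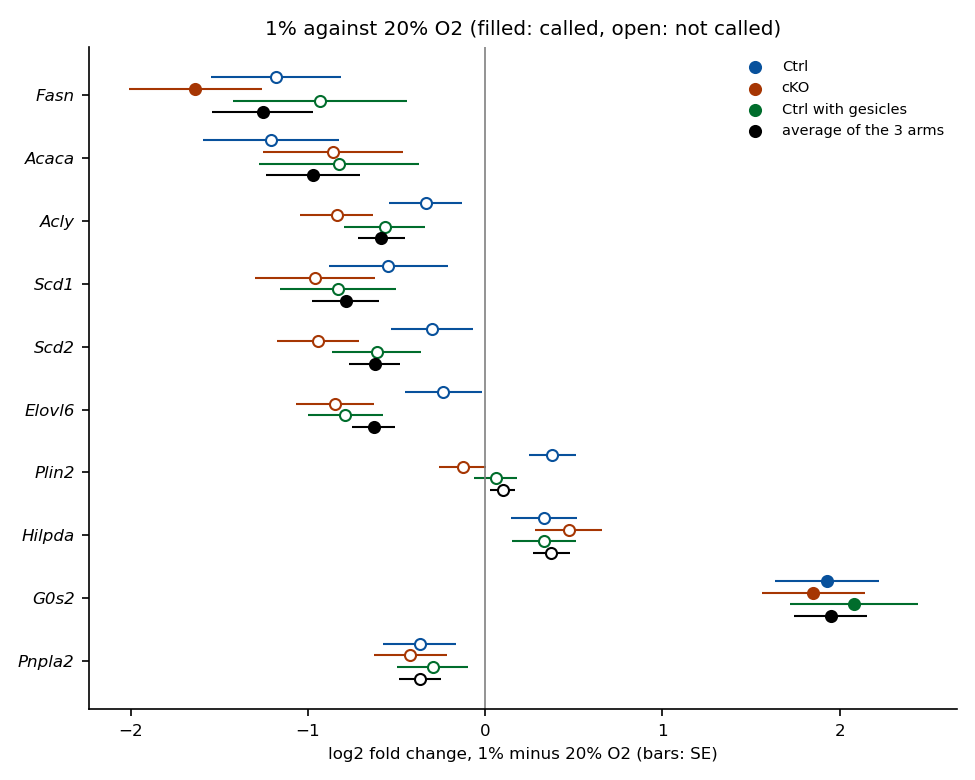
Log2 fold change of each member, 1% minus 20% O2 (horizontal axis), in each arm and averaged over the 3 arms, with SE bars; filled points were called. The 6 synthesis genes lie below 0 in every arm and are filled for the average, and G0s2 is filled in all 4 comparisons, near 2.

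Within single arms few members passed the test. In Ctrl TFs 0 of 10 were called lower (background 0.41%), although 2 were at an unadjusted p under 0.05, with log2 fold changes of -1.18 ± 0.367 for Fasn (adjusted p = 0.137) and -1.21 ± 0.383 for Acaca (adjusted p = 0.143). DESeq2 and limma voom with sample quality weights (weighted voom) each called both. With the offsets Fasn was called in Ctrl TFs (-0.99, adjusted p = 0.0275). In cKO TFs 1 of 10 was called lower (background 0.7%), where 6 lower members were at an unadjusted p under 0.05. The 1 called was Fasn at -1.64 ± 0.375 (adjusted p = 0.0453). That call was lost without any 1 library of the arm other than replicate 2 of cKO 20%, and in the fit of all 18 libraries (-1.65, adjusted p = 0.0782). It was also lost with the replicate block (-1.59, adjusted p = 0.0946) and with a block within each arm (-1.48, adjusted p = 0.079). It was kept with the offsets (-1.23, adjusted p = 0.0108). DESeq2 called 4 lower in cKO (Fasn, Acly, Scd2 and Elovl6) and weighted voom all 6 synthesis genes. Without replicate 2 of cKO 20% there were 4 lower calls (Fasn, Acly, Scd1 and Scd2) and 2 higher (Hilpda and G0s2). Over all genes, leaving out 1 cKO library gave 98 to 1373 calls in either direction, against 333 with every library. With gesicles 0 of 10 were called lower (background 0.767%), where 4 were at an unadjusted p under 0.05. There DESeq2 called 1 lower (Elovl6) and weighted voom 2 (Scd1 and Elovl6). Both tools also called more genes than edgeR over all genes in each arm. In either direction, weighted voom called 1543 of 15850 genes in Ctrl and 2718 in cKO, against 298 and 333 in edgeR. The edgeR shares above are therefore no background for the counts of these tools, for those without a library or for those at an unadjusted p. The arms thus differed in which calls passed, and the responses of cKO TFs and of TFs with gesicles were each tested against that of Ctrl TFs. The difference between the cKO and gesicle arms was not tested.

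Those differences were taken as interactions. For genotype and O2, 0 of 10 members and 0% of all genes were called in edgeR, where 1 member was at an unadjusted p under 0.05 and neither DESeq2 nor weighted voom called a member. That member was Plin2, with a difference of -0.51 ± 0.188 on the log2 scale between the cKO and Ctrl responses (unadjusted p = 0.0192 and adjusted p = 1). The differences of the 10 members ran from -0.64 (Scd2, SE 0.323) to 0.35 (Acaca, SE 0.545). For gesicles and O2, 0 of 10 members and 0% of all genes were called, 0 were at an unadjusted p under 0.05, and the differences ran from -0.55 to 0.39.

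The second question was whether members depend on the Hif1a genotype. In 20% O2 0 of 10 were called between the libraries labelled cKO and Ctrl (0.347% of all genes were, in either direction), and in 1% O2 0 of 10 (0.0379%). In 20% O2 3 members were at an unadjusted p under 0.05. Fasn was lower in the libraries labelled cKO by 0.94 ± 0.365 (adjusted p = 0.306), Acaca by 1.17 ± 0.383 (adjusted p = 0.23), and Plin2 higher by 0.50 ± 0.133 (adjusted p = 0.155), and for all 3 the 2 groups did not overlap. In 1% O2 there were also 3, each without overlap. These were Fasn at -1.40 ± 0.373 (adjusted p = 0.204), Acly at -0.67 ± 0.207 (adjusted p = 0.208) and Scd2 at -0.74 ± 0.23 (adjusted p = 0.208). Neither the share of all genes at an unadjusted p under 0.05 nor that without overlap is given here. These counts thus have no background. Acaca was at -0.82 ± 0.394 (adjusted p = 0.311), and between -1.07 and -0.23 when 1 library was left out (-0.23 without replicate 2 of Ctrl 1%). DESeq2 called 0 members in 20% and 1 in 1% O2 (Fasn), and weighted voom 2 in each. Over all genes, counts in the alternatives that kept every library ran from 55 to 1585 in 20% O2 and from 2 to 1549 in 1% O2. The 2 O2 comparisons within genotypes and these 2 share libraries. The length trend was lower in all cKO than in all Ctrl libraries in 20% O2, and overlapped in 1% O2, and its part in these differences was not tested beyond the offsets, with which Fasn stood at -0.66 and Acaca at -0.87 in 20% O2, and Fasn at -0.90, Acaca at -0.42, Acly at -0.49 and Scd2 at -0.59 in 1% O2.

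**Figure D3:**
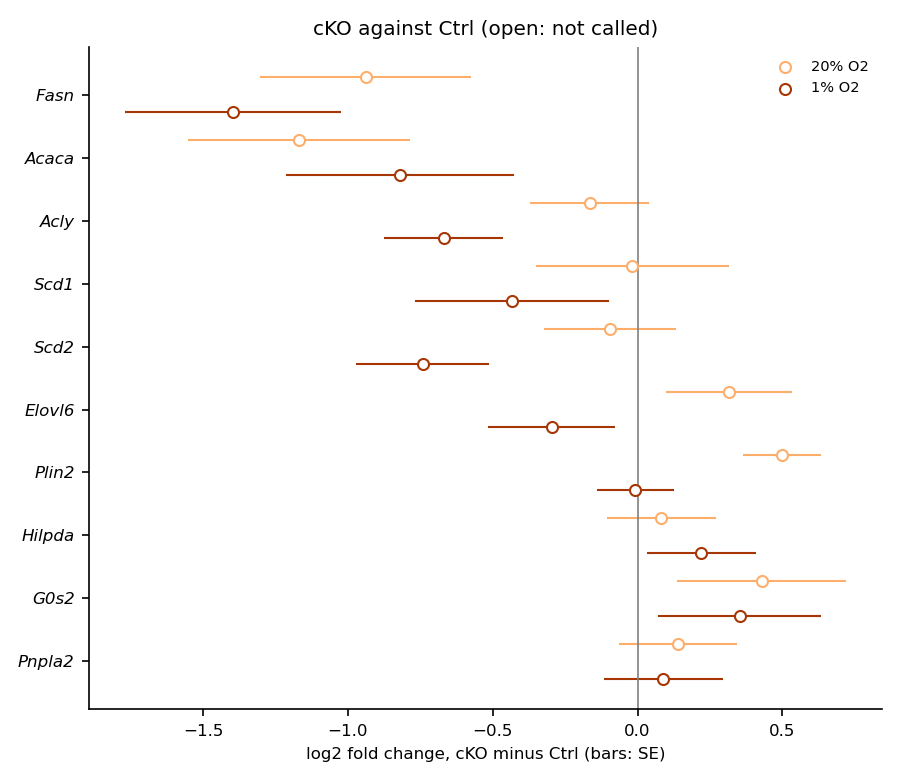
Log2 fold change of each member, cKO minus Ctrl (horizontal axis), in 20% and 1% O2, with SE bars; open points were not called. Fasn and Acaca lie below 0 at both O2 levels, Plin2 lies at 0.50 in 20% and at -0.01 in 1%, and no point is filled.

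Cre gesicles moved no member past the test. In 20% O2 0 of 10 were called (0.0247% of all genes), with differences from -0.65 to 0.26, and in 1% O2 0 of 10 (0% of all genes), with differences from -0.41 to 0.10. No member was at an unadjusted p under 0.05 in either, and DESeq2 and weighted voom called 0. The order of the group means was alike for the long synthesis genes. Fasn, Acaca, Acly, Scd1 and Scd2 were lowest in cKO 1%, then came the other 1% groups, then cKO 20%, and the 20% groups of Ctrl with and without gesicles were highest. Neighbours in this order overlapped for each of the 5, except that all Ctrl 1% libraries lay above all cKO 1% libraries for Fasn. For G0s2 the only gap in the order was between the 20% and the 1% groups.

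Levels of 5 synthesis members rose and fell together over the 18 libraries. Those of Elovl6 followed them less, with correlations from 0.337 (Acaca) to 0.667 (Acly). Pairwise correlations of log2 CPM among Fasn, Acaca, Acly, Scd1 and Scd2 ran from 0.72 (Acaca and Acly) to 0.973 (Acly and Scd2), and each had a negative correlation with Hilpda (-0.783 to -0.865). These are descriptions over libraries that share oxygen, genotype and the length trend. The correlation with the length trend was 0.793 to 0.92 for these 5, -0.834 for Hilpda, -0.717 for Plin2, -0.618 for G0s2 and 0.00367 for Pnpla2. The genes most like Fasn among all 16174 tested were Sipa1l3 (r = 0.985), Ints1 (0.984) and Phldb1 (0.981). Those most like Scd1 were Dcbld2 (0.949), Adgra3 (0.945) and Dsel (0.936), and those most like Hilpda were Yipf4 (0.955), Trappc2 (0.953) and Unc50 (0.951). Plin2 had weaker matches, with Tctex1d2 (0.881), Rab7b (0.877) and Snx22 (0.875), and Pnpla2 was most like Fbxw9 (0.92), Slc39a7 (0.902) and Mid1ip1 (0.898).

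**Figure D4:**
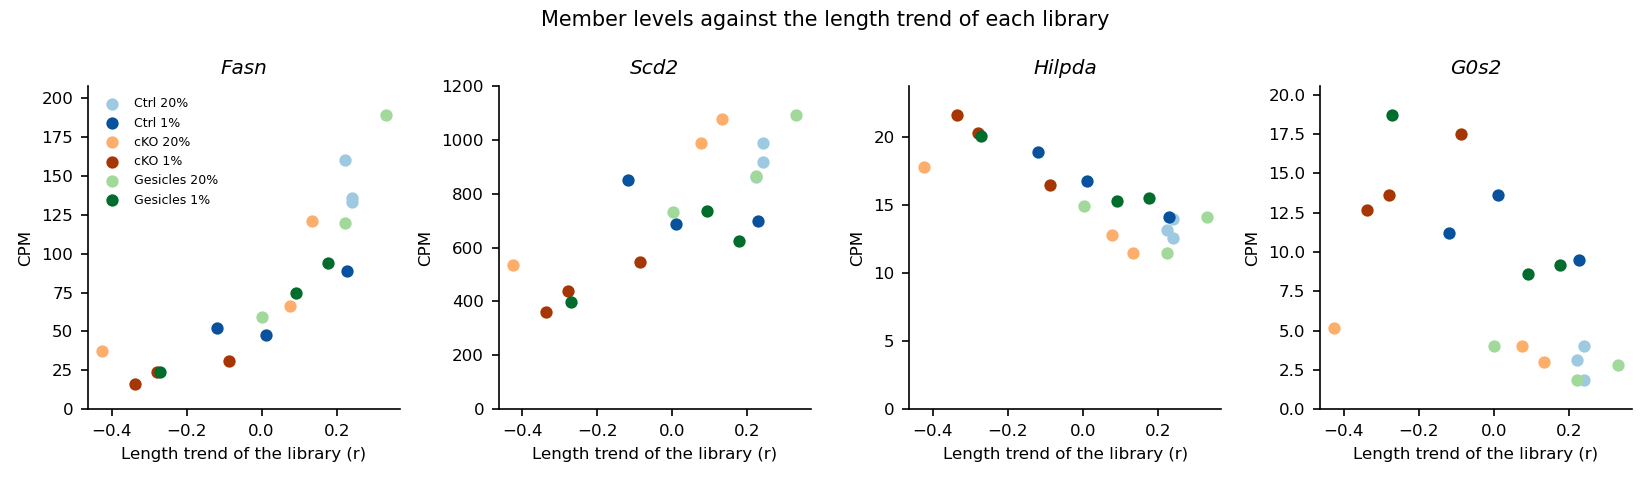
Level of Fasn, Scd2, Hilpda and G0s2 in CPM (vertical axes, from 0) against the length trend of each of the 18 libraries (horizontal axes, a correlation r over genes), coloured by group. Fasn rises with the trend (r = 0.92) and Hilpda falls (r = -0.834), while the 1% libraries of G0s2 lie above the 20% libraries.

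Other genes of the same pathways were read from lists. Of the synthesis, elongation and desaturation list, 27 of 31 genes were tested and 11 were called lower and 0 higher in 1% O2 on average, with a median log2 fold change of -0.37. Over all genes 5.13% were called lower and 5.36% higher, and the median was -0.02. The list holds 6 of the members, so its count and median partly repeat theirs. Beside 6 members, the genes with the largest changes were the elongase Elovl7 (-1.09 ± 0.278, adjusted p = 0.00982), the desaturase Fads2, which acts on polyunsaturated fatty acids (-0.95 ± 0.112, adjusted p = 2.89e-05), and Scd4 (-0.77 ± 0.263, adjusted p = 0.0436), a gene with only 2 to 17 counts per library that DESeq2 did not call. The other 2 were Elovl4 and Acss2. The Scd4 call was lost in 7 of 11 alternatives, DESeq2 among them, and in 15 of 18 fits without 1 library. Elovl7 was not called with the Ctrl and cKO arms alone (-1.05, adjusted p = 0.0546). Fads2 fell also within cKO (-1.03, adjusted p = 0.0199) and with gesicles (-1.01, adjusted p = 0.0106), calls that were lost without any 1 of 4 libraries in cKO (adjusted p from 0.0734 to 0.0962) and without either of 2 with gesicles (0.0568 and 0.0638). With the offsets it was at -0.97. Me1, a malic enzyme that makes NADPH for this synthesis, was the 1 gene of the list called higher in any arm, in cKO (0.62 ± 0.123, adjusted p = 0.0254), a call that was lost without any 1 of 5 libraries and with weighted voom (0.50).

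Among the regulators, 1 of 12 tested was called lower and 1 higher on average. Over all genes 5.13% were called lower and 5.36% higher, against which this count and those of the next lists are to be read. Insig1, a sterol-sensing retention protein of the SREBP system and itself a target of it, fell from 124 to 146 CPM to 52.8 to 76.1 in Ctrl, from 127 to 161 to 64.4 to 73.1 in cKO, and from 122 to 173 to 53.7 to 64.5 with gesicles. None of these groups overlapped, and Insig1 was called in every arm, at -1.08 ± 0.145 in Ctrl (adjusted p = 0.00237), -1.08 ± 0.146 in cKO (adjusted p = 0.00286) and -1.29 ± 0.154 with gesicles (adjusted p = 0.000232). Nr1h3, the oxysterol receptor LXRα, rose from 0.929 to 1.79 CPM over all 20% libraries to 4.41 to 7.57 CPM over all 1% libraries (2.38 ± 0.129 on average, adjusted p = 7.12e-09). Srebf2 was called lower only in the test within cKO (-0.66 ± 0.152, adjusted p = 0.0453). That call was lost with the offsets (-0.40) and weighted voom (-0.56), which were short of the fold minimum, with the replicate block (adjusted p = 0.0819), and without any 1 library other than replicate 2 of cKO 20%.

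Of the triglyceride synthesis list, 2 of 19 tested were called lower on average and 0 higher, the acyl-CoA synthetase Acsl4 (-0.65 ± 0.143, adjusted p = 0.00409) and the acyltransferase Gpat3 (-0.62 ± 0.136, adjusted p = 0.00407). With the Ctrl and cKO arms alone neither was called (-0.57, adjusted p = 0.0238, and -0.51, adjusted p = 0.0796). Of the droplet coat list, 1 of 11 was called higher, Cideb (2.02 ± 0.314, adjusted p = 0.000326), which had 1 to 9 counts per library in 20% and 2 to 23 in 1% O2. Of the lipolysis list, 3 of 10 were called higher and 0 lower: G0s2, the monoacylglycerol lipase Abhd6 (0.70 ± 0.092, adjusted p = 7.66e-05) and the carboxylesterase Ces1d. Ces1d was at 0 to 4 counts in 20% and 2 to 22 counts in 1% O2, too few for its fold change to be given. The medians of these 3 lists were -0.06, 0.14 and 0.02.

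**Figure D5:**
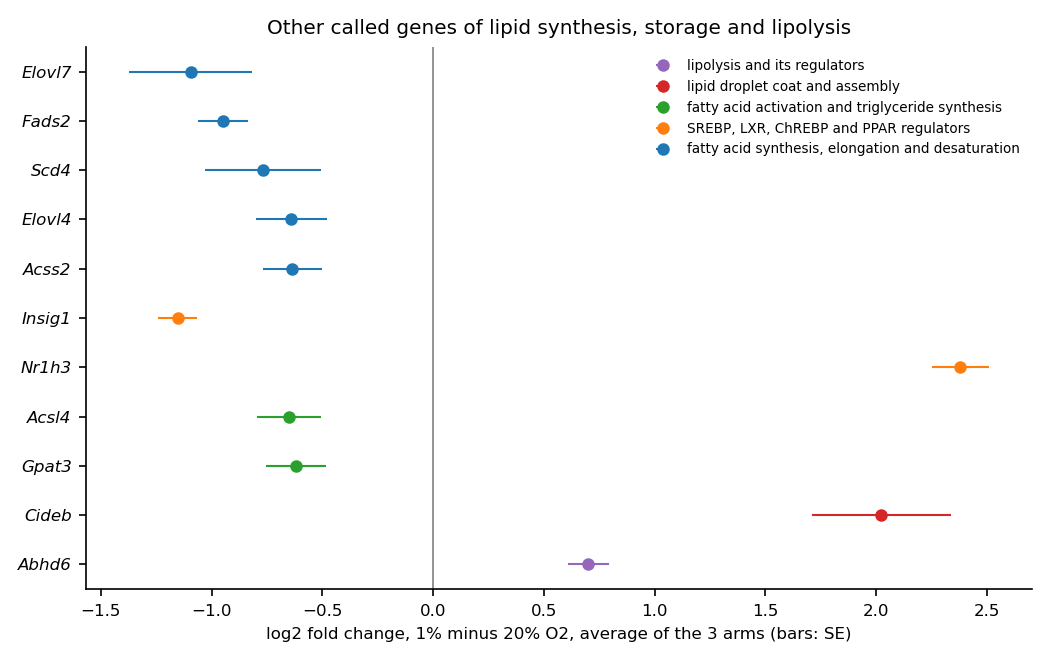
Log2 fold change in 1% against 20% O2, averaged over the 3 arms (horizontal axis, SE bars), of the called genes of the synthesis, regulator, triglyceride, droplet coat and lipolysis lists other than the members and Ces1d, coloured by list. Insig1 lies at -1.15 and Nr1h3 at 2.38, and Cideb rests on at most 23 counts per library.

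Marker lists of other cell types were also read beside these results. The summed endothelial level was 25.8 to 76.6 CPM over the 20% libraries and 11.5 to 40 CPM over the 1% libraries. Nearly all of it was Tek (118 to 3081 counts per library), which was called lower on average, as was Kdr (0 to 25 counts). The other listed markers were low, with Pecam1 at 0 to 9 counts, Cdh5 at 0 to 26 and Emcn at no more than 3. The summed level of adipocyte markers was 4.57 to 6.45 CPM in 20% and 4.95 to 8.36 in 1% O2. The part of such cells in the results was not tested. Nearly all of the adipocyte sum was Lipe and Fabp4, and the defining markers Adipoq, Cidec, Retn, Cidea and Cfd were at or near 0 in every group.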

How the data were processed

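The table held estimated counts per gene from RSEM, rounded to whole numbers, which the authors deposited for 18 poly(A) RNA-seq libraries. Per the labels and the study's methods, reads were trimmed with cutadapt and aligned to GRCm38 with STAR before RSEM (version 1.3.3). The Ensembl release and the strand setting are not given in the sources used here. Library totals ran from 6857558 to 51806453, so that low genes are least precise in the shallowest library (cKO in 1% O2, replicate 1).

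Tests used edgeR 4.0.16 (R 4.3.3) with TMM factors, the filterByExpr filter and the quasi-likelihood test, with Benjamini-Hochberg adjustment over all genes. The 12 Ctrl and cKO libraries were fitted together (15850 genes), and all 18 for gesicle comparisons and the O2 average (16174 genes). A call needed an adjusted p under 0.05 and a 1.5-fold change. The code was tested on simulated data. Alternatives were DESeq2 1.42.0, limma 3.58.1 voom with sample quality weights (weighted voom), other filters, size factors, blocks, leaving out libraries and, added after the data were seen, spline offsets for GC content and exon length (GENCODE M21).

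Replicate numbers are in the labels without a stated meaning. Same-numbered Ctrl libraries in 20% and 1% O2 deviated together (r = 0.271, 0.3 and 0.458 over genes), so the numbers were read as pairing them. The same held for Ctrl libraries with and without gesicles (0.346, 0.462 and 0.405 in 20% O2, 0.262, 0.193 and 0.284 in 1%). Ctrl 1% and Ctrl 20% with gesicles also deviated together (0.378, 0.356 and 0.314). Those of cKO (0.0956, 0.0921 and 0.368) and the other group pairs were not read as paired. The main tests used no pairing and no block, so their SEs and p-values are unpaired. Blocks by number were used only in alternatives. The members and lists were chosen with earlier results of these data known. Named genes are the members, Hif1a, up to 3 called genes with the largest change per pathway list and comparison, and the 3 genes most correlated with 5 of the members. The result for 1 gene of the uptake list is not reported here. Pdk1, Elovl4, Acss2 and Ces1d were named after their values were seen.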

Additional observations from a re-analysis of the deposited data

Results flagged for a closer look

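The count table also holds 4 transgene sequences outside the comparisons. Cre had 15 counts in all in the cKO libraries (5 of 6 with a count, at most 5 in a library) and 0 in the other 12. eGFP had 14 counts in the cKO libraries (5 of 6, at most 5) and 0 elsewhere. tdTomato had 8 counts in Ctrl libraries with gesicles (5 of 6, at most 3) and 0 elsewhere, and mCherry had 0 in every library. These were noted because they exceed the 0 counts of the Ctrl libraries. The differences were not tested.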

How the results depend on the processing

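The numbers paired Ctrl libraries in 20% and 1% O2, and Ctrl libraries with those given gesicles at the same O2 level. They did not pair the 20% and 1% libraries with gesicles (0.0417, 0.216 and -0.00612) or those of cKO. G0s2 was called higher in every alternative of the 4 O2 comparisons, except with gesicles when those 6 libraries were fitted alone (2.09, adjusted p = 0.0788, 0 members called). The O2 average (7 members) gave 4 with offsets for GC content and length, with or without the replicate block, and 5 to 9 in the other alternatives, with 5 to 7 when 1 library was left out. In Ctrl (1 member) DESeq2, no filter, weighted voom and an unadjusted p each gave 3, the offsets with or without the replicate block 2, and leaving out 1 library 1 to 2 (2 with Acaca, without replicate 2 of Ctrl 1%). In cKO (2 members) DESeq2 with or without the block and no filter gave 5, a CPM filter, the fit of 18 and the offsets 4, weighted voom 8, an unadjusted p 7 and the replicate block 1. Leaving out 1 cKO library gave 1 to 6 (6 without replicate 2 of cKO 20%). With gesicles (1 member) DESeq2 with or without the block and a block within each arm gave 2, weighted voom 3, an unadjusted p 4, and leaving out 1 library 1 to 2 (2 with Elovl6, without replicate 1 of the 1% group). Between genotypes (0 members) weighted voom and an unadjusted p gave 2 in 20% O2. In 1% O2 DESeq2 with or without the block and no filter gave 1, weighted voom 2 and an unadjusted p 3. The gesicle comparisons and interactions stayed at 0. The sign of Plin2 with gesicles changed under weighted voom (-0.0037) and ranged from -0.0722 to 0.1292 when 1 library was left out. The replicate block changed no other count of members by over 1.5 times. The causes were not tested.

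Over all genes, counts that differed by over 1.5 times were 696 (DESeq2), 743 (DESeq2 with the block), 1543 (weighted voom), 1497 (unadjusted p) and 451 (offsets) against 298 in Ctrl, and 886, 861, 2718, 1845 and 511 (no filter) against 333 in cKO. With gesicles they were 732, 879, 746, 1522, 120 (groups alone) and 617 (offsets with the block) against 390, and for the average 3980 (no fold minimum) and 1124 (Ctrl and cKO arms alone) against 1697. Between genotypes they ran from 87 to 1585 against 55 in 20% O2 and from 2 to 1549 against 6 in 1% O2. For the genotype interaction they were 2, 4 and 292 against 0, for gesicles in 20% O2 1 to 390 against 4 and in 1% O2 3 and 235 against 0, and for the gesicle interaction 1 and 200 against 0. Leaving out 1 library moved them to 116 to 261 in Ctrl, 98 to 1373 in cKO, 148 to 346 with gesicles, 1492 to 2039 for the average, 1 to 154 between genotypes in 20% O2 and 0 to 6 in 1% O2. Low counts limit Scd4, Cideb and Ces1d, and the shallowest library limits Acaca most among the members (46 counts).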

Other observations

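Fatty acid uptake and oxidation genes were read in the same way. Of the uptake list, 2 of 11 tested were called higher in 1% O2 on average, against 5.36% of all genes. Lipoprotein lipase (Lpl), which frees fatty acids from circulating triglyceride, rose from 11.6 to 29.9 CPM in Ctrl 20% to 52.9 to 93.2 in Ctrl 1%, from 21 to 39.6 to 106 to 157 in cKO, and from 6.7 to 36.6 to 65.5 to 105 with gesicles, with no overlap in any arm. Its log2 fold change was 1.78 ± 0.336 in Ctrl (adjusted p = 0.0175), 2.10 ± 0.339 in cKO (adjusted p = 0.00903) and 1.92 ± 0.468 with gesicles (adjusted p = 0.0392). The call was lost in Ctrl without replicate 2 or 3 in 20% or replicate 3 in 1% O2 (1.49 to 1.77) and in the fit of 18 (adjusted p = 0.0503), in cKO without replicate 3 in 20% O2 (adjusted p = 0.052), and with gesicles without any 1 library other than replicate 1 in 20% O2 (1.49 to 2.06) and when the groups were fitted alone (adjusted p = 0.155). The other was the fatty acid binding protein gene Fabp4, which rose by 0.75 ± 0.208 on average (adjusted p = 0.016), a call that was lost with the Ctrl and cKO arms alone (0.64, adjusted p = 0.154). Of 21 oxidation genes, 0 were called on average in either direction, with a median log2 fold change of 0.09. Between genotypes, the acyl-CoA synthetase family gene Slc27a3 was higher in the libraries labelled cKO in 20% O2 (0.89 ± 0.137, adjusted p = 0.0233), a call that was lost without any 1 Ctrl library or replicate 3 of cKO (adjusted p from 0.0594 to 0.153).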
